A study of Homo sapiens with 4 samples.

Results

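The genes described here lie on the long arm of chromosome 3 between 169 and 189 Mb (hg38), a stretch that spans bands 3q26 to q28 and holds SOX2. They were taken by position: rows of the deposited gene count table whose first listed exon entry starts in this 20 Mb window. For genes on the minus strand that entry need not be the transcript start. Left out were SOX2, SOX2-OT, microRNAs, LINC and LOC entries, antisense names and symbols ending in P plus digits. The window holds such an entry for 178 of the 28277 genes listed, and 112 of these were kept. RefSeq lists 8 of the 112 as small nucleolar RNAs (snoRNAs) and all but 3 of the others as protein-coding. The 3 are TERC, the telomerase RNA, the pseudogene NMRAL2P and the noncoding FLJ42393.

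RNA was sequenced from NCI-H520, a lung cancer line of squamous type. Both groups were the same line: 2 libraries came from cells that received 10 µM Hx1R8 for 12 h, and 2 from cells that received ultrapure water (Vehicle). The labels do not describe the make-up of Hx1R8, nor do they say that replicates were separate cultures, so the spread between libraries may be technical. Each p-value reflects such spread, pooled largely over all genes. A gene had 2 residual degrees of freedom of its own, beside a median of 36.9 from the pooling. Total counts ran from 17259403 to 20920857 per library, and the kept genes took 1.16% of the reads in every library.

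Gain of distal 3q is among the most frequent copy number changes of squamous lung cancer, and SOX2 is regarded as its lineage target. PIK3CA (a catalytic subunit of PI3-kinase), PRKCI (the polarity kinase atypical protein kinase C iota) and ECT2 (a guanine nucleotide exchange factor needed in cell division) are other candidates commonly gained together with it. A gained segment carries many housekeeping genes whose transcripts can follow gene dosage. DNA copy number was not measured in this series, so nothing here shows whether the window is amplified in NCI-H520.

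The line was checked against defining markers. Of 13 squamous markers 6 were below 1 CPM (counts scaled to library size), with KRT14 and DSG3 at 0 reads in all libraries, and TP63, which lies just beyond the window, was at 0.431 ± 0.044 CPM in Vehicle (SD, n = 2). PITX1 was the most abundant of these markers per exon length, and stood at 126 ± 1.57 CPM in Vehicle (SD, n = 2). Of 14 markers of immune, stromal, endothelial, alveolar and airway cells 13 were below 1 CPM, and their summed level was 10.5 to 11.4 CPM in Vehicle and 9.58 to 10.4 CPM in Hx1R8. SOX2 itself stood at 528 ± 18.7 CPM in the Vehicle libraries and at 510 ± 17.4 CPM with Hx1R8 (SD, n = 2 per group). In bulk RNA fewer cells and less RNA per cell cannot be told apart.

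Genes of the window were more often transcribed, and at higher levels, than the other genes of chromosome 3. Levels were compared per exon length, as CPM divided by kilobases of listed exon (CPM per kb). The median over all 112 genes was 6.48 CPM per kb, against 2.01 over 939 chromosome 3 genes outside the window chosen with the same symbol rule. The ratio of these medians was 3.22, and it lay between 3.03 and 3.29 in the 4 single libraries. In the window 80 genes (71.4%) reached 1 CPM on average, against 63.7% of the other chromosome 3 genes. In single libraries this difference lay between 5.28 and 7.17 percentage points. These are descriptions of 1 cell line, in which genes are not replicates, and no test was made. Among genes at 1 CPM or more in at least 2 libraries the ratio was 1.70 (13.8 against 8.14 CPM per kb), and among protein-coding genes it was 2.34.

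Genes of 3q outside the window had a median of 1.68 CPM per kb, and genes of 3p, the short arm, one of 2.31. Of genes at 1 CPM or more, the 38 that lie on 3q beyond the window towards the telomere had a median of 19.997 CPM per kb, above the 13.8 of the window. Over all 60 genes of that segment the order was the other way, with a median of 3.35 CPM per kb and 63.3% at 1 CPM or more, against 6.48 and 71.4% in the window. Among genes at 1 CPM or more the corresponding 229 genes of 3q before the window stood at 10.1, and the 331 genes of 3p at 6.86. Per chromosome, protein-coding genes at 1 CPM or more had medians between 5.42 and 10.3 CPM per kb, and all 23 chromosomes lay below the 13.6 of the protein-coding genes of the window. Smaller segments varied more. Of 137 stretches of 20 Mb with at least 50 protein-coding genes, laid end to end over these chromosomes, 11 had a higher median over their protein-coding genes than the window with its 6.43 CPM per kb, among them the stretch of chromosome 3 from 180 to 200 Mb that overlaps it. In 31 of the 137 the share of protein-coding genes at 1 CPM or more was higher than the 73.3% of the window, among them chromosome 3 from 20 to 40 Mb with 75.4%.

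**Figure D1:**
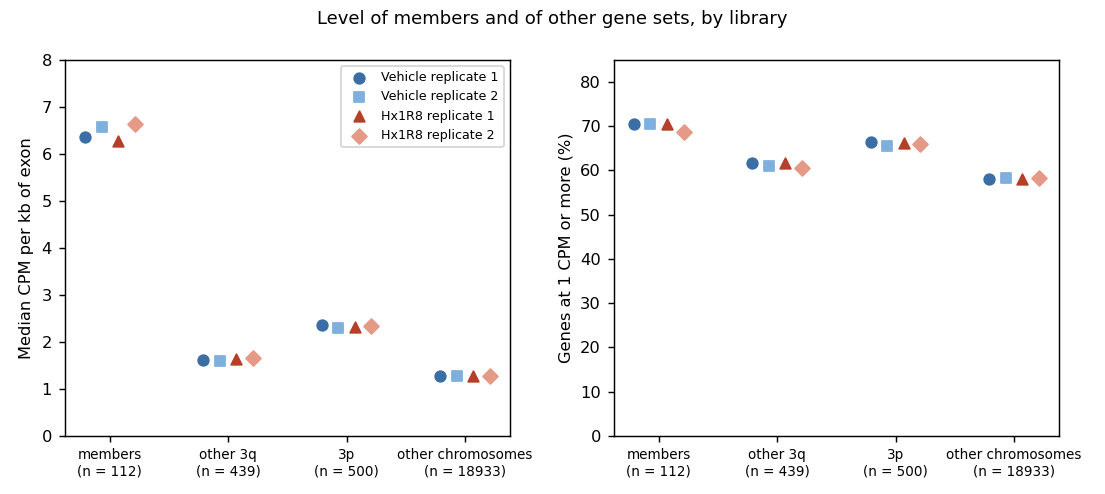
Median CPM per kb of exon (left) and percentage of genes at 1 CPM or more (right) for the genes of the window (members), other genes of 3q, genes of 3p and genes of all other chromosomes, with 1 point per library. In every library the members lie highest in both panels, with medians near 6.48 CPM per kb against 1.68, 2.31 and 1.29 for the other sets.

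Transcription was uneven along the window. Between 183 and 185 Mb lay 35 of the 112 genes, and they held 49.9% of the summed CPM of the window. The next step of 2 Mb, from 185 to 187 Mb, added 25 genes and 19.6%. All 14 genes between 179 and 181 Mb, the stretch with PIK3CA, ACTL6A and FXR1, reached 1 CPM, with a median of 16.1 CPM per kb. Between 169 and 171 Mb, at the start of the window, 11 of 18 genes did so, with a median of 1.81 CPM per kb. Gene-poor stretches lay in between: 2 genes started from 173 to 175 Mb (NLGN1, a synaptic adhesion gene, at 0.0569 CPM per kb, and NAALADL2), and none from 175 to 177 Mb. The highest median of any step, 38.9 CPM per kb from 177 to 179 Mb, rested on 2 genes, TBL1XR1 and KCNMB2. SOX2 stood at 207 CPM per kb, and 4 genes of the window were above it.

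**Figure D2:**
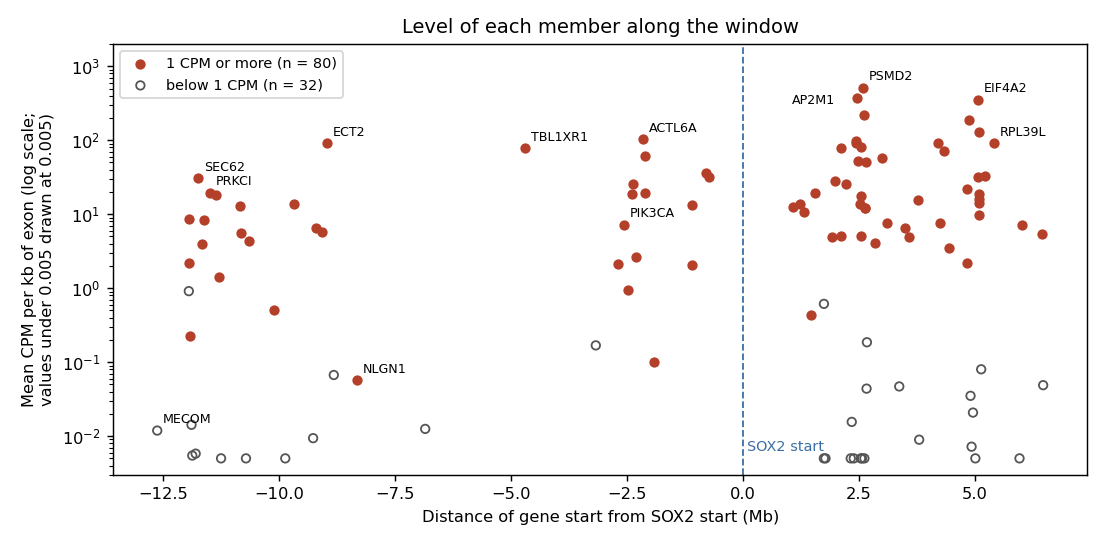
Mean CPM per kb of exon over 4 libraries (log axis, values under 0.005 drawn at 0.005) for each gene of the window. The other axis is the distance of its lowest listed exon coordinate, on either strand, from that of SOX2. Filled points are the 80 genes at 1 CPM or more and open points the 32 genes below, and the densest group of high points lies to the right of SOX2, around PSMD2.

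Genes of the window at 1 CPM or more, here called transcribed, differed from those below in the sequence before their starts. Genes below 1 CPM were not all silent, as CHRD at 0.862 CPM shows. RefSeq promoter sequences (GRCh38.p14) matched 93 of the 112 genes, and the 250 bases before each start were read. Of 66 genes with at least 10 CG pairs in these bases 59 reached 1 CPM, against 8 of 27 genes with fewer. The median number of CG pairs was 20 in genes at 1 CPM or more and 3 in genes below. Other chromosome 3 genes divided in a similar way, with 445 of 532 and 72 of 239 at 1 CPM or more, so this is a property the window shares with the rest of the chromosome. Promoters of 5 genes are shown to make the contrast visible, chosen after their values were seen, with each CG pair in capitals. PSMD2 (chr3:184298991-184299240, plus strand), TBL1XR1 (chr3:177197483-177197732, minus strand) and PIK3CA (chr3:179148107-179148356, plus strand) are transcribed. SST, which encodes somatostatin (chr3:187670395-187670644, minus strand), had 0 reads in every library, and HRG, a liver plasma glycoprotein (chr3:186665764-186666013, plus strand), had 3 reads in all.
PSMD2: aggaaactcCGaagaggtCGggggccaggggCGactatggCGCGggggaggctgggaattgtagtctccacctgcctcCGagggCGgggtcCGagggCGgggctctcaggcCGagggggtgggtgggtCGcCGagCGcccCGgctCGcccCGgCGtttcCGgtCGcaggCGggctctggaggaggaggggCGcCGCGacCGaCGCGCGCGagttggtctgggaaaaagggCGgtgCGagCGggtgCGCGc
TBL1XR1: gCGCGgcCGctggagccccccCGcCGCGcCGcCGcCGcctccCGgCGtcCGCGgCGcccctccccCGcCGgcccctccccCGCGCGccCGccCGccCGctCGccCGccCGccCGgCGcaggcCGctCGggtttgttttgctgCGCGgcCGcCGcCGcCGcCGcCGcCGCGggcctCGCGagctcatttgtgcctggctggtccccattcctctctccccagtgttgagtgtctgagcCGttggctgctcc
PIK3CA: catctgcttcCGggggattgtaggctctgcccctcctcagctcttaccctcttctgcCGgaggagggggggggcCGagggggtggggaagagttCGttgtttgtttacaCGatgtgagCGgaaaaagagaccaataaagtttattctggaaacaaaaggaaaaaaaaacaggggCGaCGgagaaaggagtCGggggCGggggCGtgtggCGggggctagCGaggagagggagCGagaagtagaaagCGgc
SST: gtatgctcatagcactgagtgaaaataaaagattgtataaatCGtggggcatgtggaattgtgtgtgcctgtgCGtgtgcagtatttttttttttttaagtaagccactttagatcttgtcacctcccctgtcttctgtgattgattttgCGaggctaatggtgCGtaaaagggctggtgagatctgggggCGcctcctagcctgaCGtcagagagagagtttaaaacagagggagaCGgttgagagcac
HRG: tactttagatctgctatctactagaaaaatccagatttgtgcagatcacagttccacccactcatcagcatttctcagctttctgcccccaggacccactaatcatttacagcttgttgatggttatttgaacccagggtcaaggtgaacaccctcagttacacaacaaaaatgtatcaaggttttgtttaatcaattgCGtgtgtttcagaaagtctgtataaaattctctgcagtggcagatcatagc
PSMD2 holds 33 CG pairs in these 250 bases, TBL1XR1 42 and PIK3CA 15, against 7 in SST and 1 in HRG. Short motifs were searched on both strands of the same 250 bases. The GC box GGGCGG was present in 46 of 67 transcribed genes (68.7%) and 6 of 26 others (23.1%). Other chromosome 3 genes were again similar, with 65.8% of those at 1 CPM or more and 33.9% of those below. It was present in 42.3% of all 27303 promoters of the table, taken at any level. The TATA motif TATAAA, present in SST and HRG, was found in 13 of the 93 against 11.1% of all promoters. By level, 8 of 67 transcribed genes (11.9%), EIF4A2 among them, and 5 of 26 others (19.2%) held this TATA motif. Among other chromosome 3 genes it was in 31 of 517 at 1 CPM or more and 31 of 254 below. The SOX motif CATTGT was found in 7 of the 93 (7.53%) against 9.45% of all promoters. A match is a description of the letters, not a bound site.

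Translation and RNA-binding genes were among the most abundant of the window. EIF4A2, an RNA helicase of the cap-binding complex, stood at 688 and 619 CPM in Vehicle replicates 1 and 2 and at 675 and 681 CPM in Hx1R8 replicates 1 and 2. EIF4G1, the scaffold of that complex, stood at 1337 and 1447 CPM in Vehicle and 1350 and 1379 CPM in Hx1R8. In both genes the Vehicle libraries were the farthest apart and enclosed the Hx1R8 libraries. EIF2B5, a subunit of the exchange factor for the initiation factor eIF2, differed little between libraries, at 251 and 251 CPM in Vehicle and 248 and 251 CPM in Hx1R8. TRA2B, a splicing regulator, stood at 392 and 359 CPM in Vehicle and 398 and 385 CPM in Hx1R8. FXR1, an RNA-binding relative of the fragile X protein, stood at 322 and 289 CPM in Vehicle and 323 and 321 CPM in Hx1R8. Vehicle replicate 2 was the lowest library for FXR1, TRA2B and EIF4A2. Of 11 genes of this role 10 reached 1 CPM, and TERC, the RNA template of telomerase, did not, with 8 and 5 reads in Vehicle and 13 and 3 in Hx1R8. TERC is a noncoding RNA of 451 listed bases. How RNA was selected for the libraries is not described here, so its reads may not reflect its level.

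Protein turnover and secretory genes held the most abundant gene of the window. PSMD2, a base subunit of the proteasome regulatory particle (chromosome 3, 184299241 to 184309050), stood at 1486 and 1638 CPM in Vehicle and 1522 and 1560 CPM in Hx1R8. It was first by reads and also per length, at 514 CPM per kb. DNAJB11, a chaperone of the endoplasmic reticulum, stood at 317 and 318 CPM in Vehicle and 325 and 312 CPM in Hx1R8. ALG3, a mannosyltransferase of glycan assembly, stood at 152 and 152 CPM in Vehicle and 150 and 150 CPM in Hx1R8. DCUN1D1, a factor that helps attach NEDD8 to cullins, stood at 116 and 99.0 CPM in Vehicle and 108 and 107 CPM in Hx1R8. Of 10 genes of this role 9 reached 1 CPM, the exception being KLHL6 with 1 read.

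Among signalling and polarity genes, 16 of 17 reached 1 CPM. DVL3, a scaffold of WNT signalling, stood at 472 and 497 CPM in Vehicle and 479 and 476 CPM in Hx1R8, and ECT2 at 448 and 426 CPM in Vehicle, with both Hx1R8 libraries between 426 and 451 CPM. Per length the 2 genes were nearly equal, at 91.3 and 90.6 CPM per kb. PRKCI followed at 98.1 and 89.9 CPM in Vehicle and 97.2 and 97.4 CPM in Hx1R8. FNDC3B, a membrane protein with fibronectin repeats, stood at 114 and 109 CPM in Vehicle and 112 and 112 CPM in Hx1R8. PIK3CA stood at 66.6 and 66.8 CPM in Vehicle and 68.4 and 66.5 CPM in Hx1R8, or 7.24 CPM per kb. GNB4, a G protein beta subunit, reached 16.9 ± 0.83 CPM in Vehicle (SD, n = 2). The ghrelin receptor gene GHSR was the 1 gene of this role below 1 CPM, with 2 reads in all.

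Transcription and chromatin genes were led per length by ACTL6A, an actin-like subunit of the BAF chromatin remodelling complex, at 103 CPM per kb. It stood at 202 and 197 CPM in Vehicle and 203 and 200 CPM in Hx1R8. TBL1XR1, a subunit of the NCoR corepressor complex, stood at 695 and 633 CPM in Vehicle and 676 and 654 CPM in Hx1R8. ETV5, an ETS factor downstream of growth factor receptors, stood at 286 and 307 CPM in Vehicle and 298 and 291 CPM in Hx1R8. MECOM, a zinc finger factor often named with 3q26 gain, had 2 and 1 reads in Vehicle and 0 and 3 in Hx1R8. It was the 1 of 12 genes of this role below 1 CPM, and it was below that level although its promoter held at least 10 CG pairs.

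Metabolic, transport and replication genes were mostly transcribed. PARL, a protease of the inner mitochondrial membrane, stood at 130 and 124 CPM in Vehicle and 125 and 119 CPM in Hx1R8. ST6GAL1, a sialyltransferase, stood at 159 and 157 CPM in Vehicle and 159 and 160 CPM in Hx1R8. AP2M1, the cargo-binding subunit of the clathrin adaptor AP2, stood at 715 and 778 CPM in Vehicle and 736 and 754 CPM in Hx1R8, second per length at 370 CPM per kb. ABCC5, an efflux pump of the multidrug resistance protein family, stood at 183 and 183 CPM in Vehicle and 178 and 182 CPM in Hx1R8. TMEM41A, a membrane protein gene, stood at 44.3 and 44.6 CPM in Vehicle and 41.5 and 41.8 CPM in Hx1R8, lower in both Hx1R8 libraries but not called. RFC4, a subunit of the clamp loader of DNA replication, stood at 209 and 205 CPM in Vehicle and 212 and 204 CPM in Hx1R8. The glucose transporter gene SLC2A2, typical of liver and pancreas, had 0 reads.

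Genes typical of other tissues were low. None of 6 plasma protein genes of the liver and fat group (ADIPOQ, AHSG, FETUB, HRG, KNG1, THPO) reached 1 CPM, and ADIPOQ, the highest, was at 0.367 CPM. Of 13 nerve, gut, eye and testis genes 4 reached 1 CPM, led by ACTRT3 at 2.18 CPM per kb. CRYGS, a lens crystallin gene, was at 1.89 and 2.25 CPM in Vehicle and 1.45 and 1.77 CPM in Hx1R8, and CCDC39, a gene of motile cilia, at 7.72 and 7.52 CPM in Vehicle and 7.84 and 8.26 CPM in Hx1R8. In all, 8 genes of the window had 0 reads in every library, which allows up to 0.143 to 0.174 CPM per library (a floor of 3 counts, covering counting error only). ECE2 was among the 8, but 11.8% of its exon bases belong to it alone, the rest being shared with the listed read-through EEF1AKMT4-ECE2. A read that falls on more than 1 gene may not have been counted, so a 0 there does not show a silent gene. The snoRNAs hosted by EIF4A2 were detected at low counts before scaling, such as SNORA63 at 30 and 29 reads in Vehicle and 40 and 40 reads in Hx1R8. As with TERC, these counts may not reflect their levels.

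Several genes of the window have a close relative elsewhere, and the window copy was not always the higher of the pair. Each was set beside a single chosen relative, so its share leaves out any other member of the family. Of 17 pairs in which both could be measured, the gene of the window was the higher per kb in 10 and the lower in 7. ACTL6A stood alone, with 1 read of its neuronal paralog ACTL6B in all libraries. EIF4G1 held 94.5% of its pair with EIF4G3, ETV5 88.7% with ETV4, TBL1XR1 83.5% with TBL1X, and TRA2B 80.4% with TRA2A. DVL3 held 73.0% with DVL1, ATP11B, a phospholipid flippase, 69.6% with ATP11A, DCUN1D1 61.4% with DCUN1D2, and FXR1 56.5% with FXR2. PRKCI held 72.7% with PRKCZ, ranging from 69.6% to 74.8% over the libraries. PIK3CA held 39.1% with PIK3CB, which lies on chromosome 3 outside the window, and the 4 libraries lay between 38.6% and 39.3%. MFN1, which fuses mitochondria, held 32.2% with MFN2, and PLD1 held 6.75% with PLD2. Some genes of the window held a minor share of their pair, among them the ribosomal protein genes RPL22L1 and RPL39L. EIF5A2 held 1.76% with EIF5A, RPL22L1 6.66% with RPL22 and RPL39L 17.9% with RPL39, and GNB4 held 0.937% with GNB1. EIF4A1, the paralog of EIF4A2, was listed at 0 reads in every library. All its exon bases are shared with the listed read-through SENP3-EIF4A1, so the pair could not be compared. Reads of near-identical copies can be assigned to either paralog, which makes these shares uncertain. The shares also depend on the length scaling. By CPM alone FXR1 held 79.0%, DCUN1D1 80.6%, PIK3CA 47.4% and RPL39L 28.9%. Shares that were lower by CPM were those of ATP11B (65.4%), EIF4G1 (94.0%) and RPL22L1 (6.37%).

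**Figure D3:**
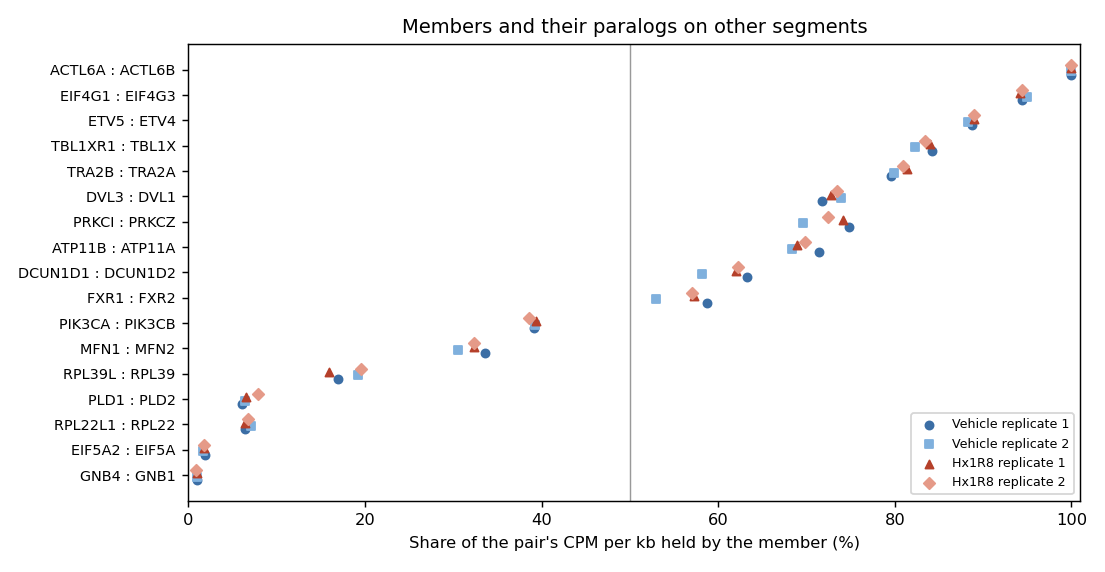
Percentage of the summed CPM per kb of each pair that came from the gene of the window, with 1 point per library, for 17 pairs ordered by their mean. The line marks equal levels, and 10 pairs lie to its right in all 4 libraries.

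After 12 h of Hx1R8 no gene of the window passed the test. The comparison asks whether transcripts of the segment around SOX2 differ when cells receive Hx1R8. By edgeR's quasi-likelihood test with Benjamini-Hochberg adjustment over all 14482 genes tested, 0 of the 81 testable genes of the window were called, and their adjusted p was 0.9999 throughout. Over all genes 3 were called, which is 0.0207% (0.0138% higher and 0.00691% lower), so no called gene in a set of 81 is no result about the window. At an unadjusted p under 0.05 there were 0 of 81, against 491 genes (3.39%, with 1.59% higher and 1.8% lower) in the whole table. DESeq2 and limma-voom also called 0. The median log2 fold change of the 81 was -0.01, beside -0.0018 over all genes tested, and 36 were above and 45 below 0 (51.1% of all genes tested were below). The 31 genes not tested had too few reads for the filter, 8 of them none.

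The 95% intervals of the fold change were narrow for abundant genes. Their widths rest largely on spread pooled over all genes, more than on the libraries of the single gene. In 59 of 81 genes the whole interval was inside 1.2-fold either way (57.6% of all genes tested), and in 67 it was inside 1.5-fold (81.4% of all). ECT2 had a fold between 0.960 and 1.09, PIK3CA between 0.932 and 1.09, PRKCI between 0.960 and 1.12, and ACTL6A between 0.946 and 1.08. For PSMD2 the interval ran from 0.923 to 1.06. At the low end, NLGN1 with 14 to 21 reads per library was bounded only between 0.644 and 1.69. The other two of the scarcest tested genes had intervals of 0.674 to 1.92 (CHRD, a BMP antagonist) and 0.594 to 1.55 (LRRC34).

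**Figure D4:**
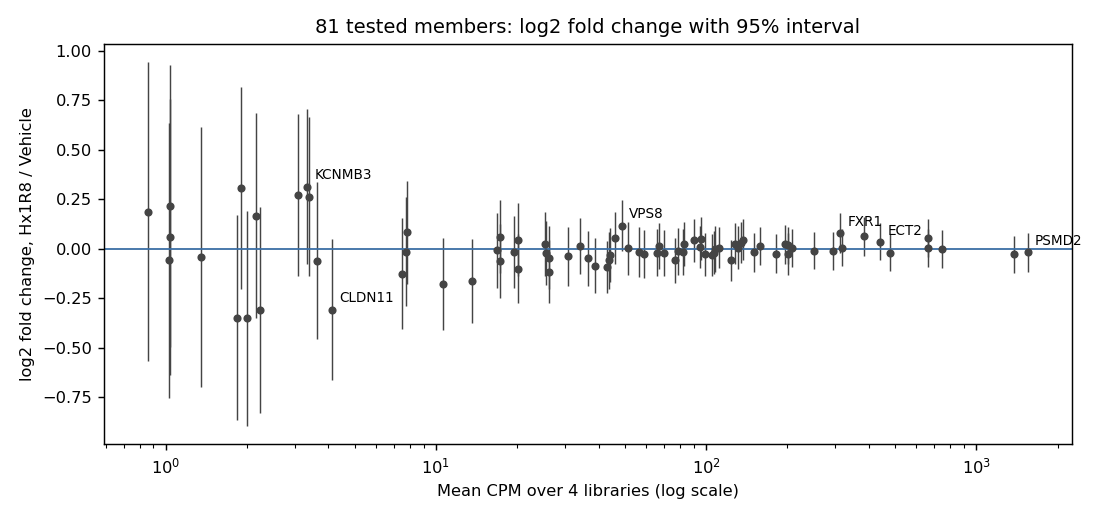
log2 fold change of Hx1R8 over Vehicle (points) with its 95% interval (bars) for the 81 tested genes of the window, against mean CPM on a log axis. Every interval includes 0, and intervals widen below 10 CPM.

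Both Hx1R8 libraries lay above both Vehicle libraries in 8 of 81 genes (14.7% of all genes tested), and below them in 12 (15.2% of all). The smallest unadjusted p belonged to VPS8, a tether of endosome fusion, at 48.7 and 44.7 CPM in Vehicle and 51.1 and 50.3 CPM in Hx1R8. Its log2 fold change was 0.12 (SE 0.06, adjusted p = 0.9999 by edgeR), so the difference did not hold up over all genes. CLDN11, a tight junction gene, stood at 4.29 and 4.86 CPM in Vehicle and 3.37 and 3.96 CPM in Hx1R8. KCNMB3, a potassium channel subunit, stood at 2.91 and 3.06 CPM in Vehicle and 3.43 and 3.96 CPM in Hx1R8. In these low genes the groups did not overlap, with log2 fold changes of -0.31 (SE 0.18) and 0.31 (SE 0.19) that did not pass. BCL6, a transcriptional repressor, stood at 26.4 and 28.2 CPM in Vehicle and 25.3 and 25.1 CPM in Hx1R8, also without overlap and without a call. MAP6D1, which encodes a microtubule-associated protein, was at 10.3 and 12.1 CPM in Vehicle and 9.82 and 10.0 CPM in Hx1R8, with -0.18 (SE 0.12) on the log2 scale. PLD1, a phospholipase, was at 2.69 and 2.95 CPM in Vehicle and 2.96 and 3.77 CPM in Hx1R8, with 0.27 (SE 0.20). Both had groups that did not overlap, but PLD1 only after scaling, with 51 reads in Vehicle replicate 2 and 51 in Hx1R8 replicate 1. The libraries of NMRAL2P overlapped at 15.5 and 13.1 CPM in Vehicle and 12.4 and 13.2 CPM in Hx1R8, with -0.16 (SE 0.10). KCNMB3 shares exon bases with PIK3CA and ACTL6A with MRPL47, and 91.0% of the exon bases of KCNMB3 are its own. Without a stated strand setting, reads of such neighbours cannot be told apart.

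Transcribed genes of the window differed more between the 2 Vehicle libraries than between the 2 Hx1R8 libraries, as did the whole table. There the chi-square per gene, a measure of difference beyond sampling noise, was 2.95 between the Vehicle and 1.60 between the Hx1R8 libraries. With Hx1R8 replicates 1 and 2 it was 1.48 and 1.79 for Vehicle replicate 1, and 2.43 and 2.28 for Vehicle replicate 2. Over the 80 genes at 1 CPM or more the median absolute log2 difference was 0.10 between the Vehicle libraries and 0.046 between the Hx1R8 libraries. Between the groups it was 0.034, but this is a fitted difference between groups of 2 libraries. Such a difference is smaller than one between single libraries even without any effect, so it cannot be ranked with them. In Vehicle replicate 2 PSMD2 was 1.10 times, AP2M1 1.09 times and EIF4G1 1.08 times its level in replicate 1, whereas EIF4A2 was 0.900 times, FXR1 0.897 times and DCUN1D1 0.850 times. Of the 40 genes with the more GC-rich transcripts (longest GENCODE v29 transcript, split at 42.6% GC) 22 were higher in Vehicle replicate 2, against 9 of the 39 others. All genes at 1 CPM, split at their own median of 48.4% GC, gave 4347 of 6479 and 1996 of 6478. Its part in the comparison of the groups was not tested.

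**Figure D5:**
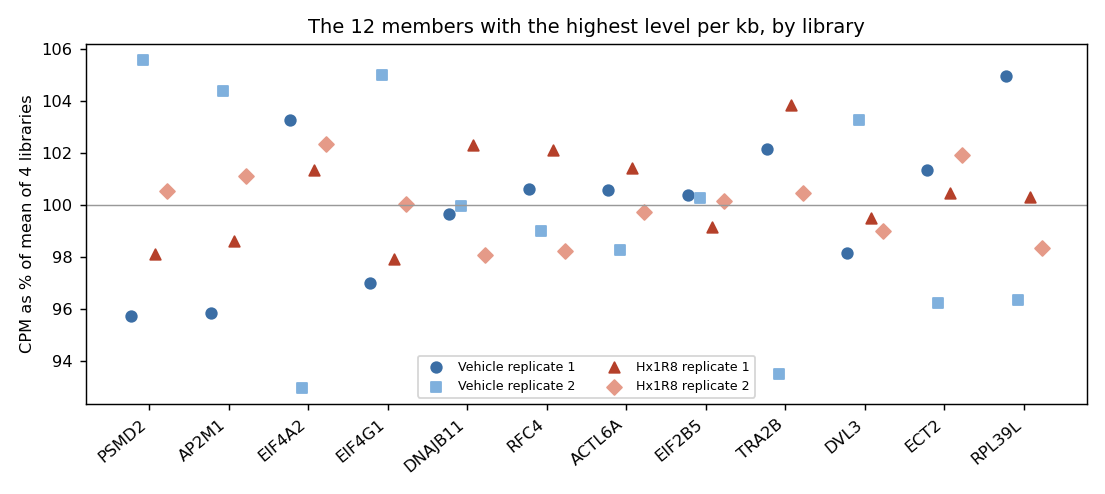
CPM in each library as a percentage of the mean of the 4 libraries (axis not starting at 0) for the 12 genes of the window with the highest level per kb. Vehicle replicates 1 and 2 lie at opposite ends for PSMD2, AP2M1 and EIF4G1, with both Hx1R8 libraries between them.

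Leaving out Vehicle replicate 1 changed 2 calls. Without it, EIF4A2 (log2 fold change 0.13, adjusted p = 0.019) and FXR1 (0.16, adjusted p = 0.012) were called higher in Hx1R8 by edgeR, as 2 of 83 genes of the window tested, against 79 genes (0.534%) of the whole table. Without Vehicle replicate 2, Hx1R8 replicate 1 or Hx1R8 replicate 2 no gene of the window was called, against 0.208%, 0.047% and 0.0406% of all genes. In the fit without Vehicle replicate 1 the only control was Vehicle replicate 2, the lowest library for EIF4A2 and FXR1. Without Vehicle replicate 2 their log2 fold changes were -0.018 (EIF4A2) and 0.0045 (FXR1). With all libraries EIF4A2 was at 0.05 (SE 0.05) and FXR1 at 0.08 (SE 0.05), and over the alternatives their adjusted p ran up to 0.9999.

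Grouped by role, no set of the window held a gene past the threshold. Median log2 fold changes were -0.0012 over 16 signalling genes, 0.0026 over 11 transcription genes, 0.0061 over 10 translation genes and -0.018 over 9 protein turnover genes. They were -0.014 over 9 metabolic and -0.014 over 8 transport genes, all beside -0.0018 over all genes tested. Of the 11 tested among the genes often discussed as 3q gain candidates, 7 were above and 4 below 0, from -0.04 (EIF5A2) to 0.08 (FXR1). All 11 had intervals within 1.5-fold of no change.

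In 3 related gene lists outside the window 0 genes were called. Of 18 tested PI3K pathway genes 7 were above and 11 below 0, with a median of -0.024. Of 14 BAF complex partners of ACTL6A 4 were above and 10 below 0, with a median of -0.026. Among 11 genes of 3q beyond the window 9 were above and 2 below 0, with a median of 0.037. Of these, IL1RAP (0.73, SE 0.26) and HES1 (0.17, SE 0.06) had the smallest unadjusted p, and neither passed.

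The symbol rule also left out 8 genes of the window that end in P plus digits but are no pseudogene copies: IGF2BP2, LAMP3, MASP1, RTP1, RTP2, RTP4, SENP2 and USP13. SENP2, a SUMO protease, stood at 178 and 170 CPM in Vehicle and 179 and 173 CPM in Hx1R8, and USP13, a deubiquitinase, at 134 and 142 CPM in Vehicle and 137 and 143 CPM in Hx1R8. IGF2BP2, an mRNA-binding protein, was at 20.9 ± 0.72 CPM and LAMP3, a lysosomal membrane protein, at 7.96 ± 0.27 CPM in Vehicle (SD, n = 2 each). MASP1, RTP1 and RTP2 had too few reads for the test. Groups overlapped in SENP2, USP13, IGF2BP2 and RTP4 but not in LAMP3, and none of these 5 was called.

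Head-to-head neighbours differed in level per kb. In 4 pairs with starts at most 1000 bases apart on opposite strands, both genes reached 1 CPM. DNAJB11 and TBCCD1, 133 bases apart, stood at 188 and 22.2 CPM per kb. POLR2H, a shared subunit of the nuclear RNA polymerases, and the chloride channel gene CLCN2, 105 bases apart, stood at 50.5 and 11.9 CPM per kb. MRPL47 and NDUFB5, a ribosomal and a respiratory protein of mitochondria, 141 bases apart, stood at 61.1 and 19.5 CPM per kb, but at 83.1 and 82.2 CPM without length scaling. ALG3 and EEF1AKMT4, 132 bases apart, stood at 81.1 and 17.4 CPM per kb, the latter with 49.2% of its exon bases shared with no other gene.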

How the data were processed

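RNA of 2 Vehicle and 2 Hx1R8 libraries was measured. Per the labels' protocols total RNA was extracted with TRIzol and libraries were built with an ABclonal kit. The authors deposited raw counts per gene. STAR 2.7.9 and hg38 are named in the submitters' processing notes. No counting tool, annotation or strand setting is named there, so overlapping and antisense genes cannot be separated. The deposited exon length (other listed value, in bases) equals the merged listed exons in all but 1 gene. A broken row (2 lines, 1 gene, no reads) was left out.

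The deposited counts entered edgeR 4.0.16, run in R 4.3.3 (TMM, filterByExpr, quasi-likelihood test, group as the only term, two-sided, Benjamini-Hochberg over all genes, threshold 0.05). The test was checked on simulated counts. CPM values were scaled by TMM factors. Libraries differed beyond sampling noise in every pair (chi-square per gene 1.48 to 2.95), so none was a copy of another. Promoters, biotypes and symbols came from RefSeq tables of GRCh38.p14.

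Members and lists were chosen with earlier results of these data known. Named genes were the 12 most abundant per kb, the 4 smallest unadjusted p in each direction, the commonly discussed 3q genes, up to 3 genes per role by level, paralog pairs and the 3 scarcest tested genes. Other names, the printed promoters, the GC split, the 20 Mb stretches, the motif search and the head-to-head pairs were chosen after values were seen. Alternatives covered normalization, filter, DESeq2 1.42.0, limma-voom (limma 3.58.1), robust dispersions, a replicate block and each library left out, and for levels the length scaling, the level threshold and the window.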

Additional observations from a re-analysis of the deposited data

How the results depend on the processing

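The count of 0 called genes of the window held under 9 other settings of the test that kept every library, DESeq2, limma-voom and the replicate block (0 called) included, and with pseudogenes left out by RefSeq biotype. Leaving out 1 library gave 0 to 2 called, the 2 being EIF4A2 and FXR1 without Vehicle replicate 1. The lone sample of a group is then assumed to vary like the other group. The median log2 fold change ran from -0.0167 to 0.015 with 1 library left out, and its sign turned without Vehicle replicate 1 and without Hx1R8 replicate 2. By the labels the samples share only a number. Same-numbered deviations correlated at 0.03 across 14482 genes, which with 2 libraries per group cannot show whether they were paired. With the replicate block the median was -0.0079. The ratio of median levels, 3.22 in the main comparison, was 2.73 without length scaling, 1.70 among genes at 1 CPM in 2 libraries and 3.77 without the first and last 2 Mb of the window. It was 2.35 with pseudogenes left out by RefSeq biotype and 2.34 among protein-coding genes, both chosen after seeing the data, and 3.14 to 3.30 with 1 library left out. The share of genes past the level threshold was 7.74 percentage points higher in the window at 1 CPM, 4.48 at 0.5 CPM and 5.15 at 5 CPM. The causes of these shifts were not tested, beyond fewer genes entering some of them. The step of the window with the highest median began at 177 Mb in each setting, and the window gene was higher in 10 of 17 pairs in each. Of 597 recomputed log2 fold changes of 46 named genes, 2 were called and 41 had the opposite sign, 37 of them with a library left out. Below 10 CPM depth limits what can be said about single genes.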
